A study of Rattus norvegicus and Mus musculus with 25 samples.

Results

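Endothelial marker genes were followed through every library of a series on the very low density lipoprotein receptor Vldlr in neonatal heart muscle cells. The members were 10 genes given by symbol: Pecam1, Cdh5, Esam, Cldn5, Kdr, Flt1, Tek, Tie1, Emcn and Egfl7. All 10 had a row among the 54083 uniquely named rows of the mouse table, and 9 had a row among the 28905 of each rat table; Pecam1 was not analysed here in rat. The series held 25 RNA-seq libraries, 16 from rat cultures and 9 from mouse.

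The rat libraries came from ventricular cells of 1 day old SD rats, plated briefly to remove cells that attach sooner than cardiomyocytes and then cultured on coated plates. Cells were transfected for 60 h with 50 nM siRNA against Vldlr (si-Vldlr) or with its control siRNA (si-Control_v). Others were given the secreted Vldlr ligand Reelin or PBS for 48 h. Another pair of groups was transduced for 72 h with AAV9-cTnT-Vldlr (Vldlr OE), in which a cardiomyocyte promoter drives the transgene, or with the control (Control), for which the protocol names AAV9-CMV-GFP. A separate table held cells transfected for 60 h with 50 nM siRNA against Thbs1, which encodes the matrix glycoprotein thrombospondin 1 (si-Thbs1), or with its own control siRNA (si-Control_t). Each rat group had 2 libraries. The 2 columns used as Control carried another name and were placed there by elimination, so every result that uses Control rests on that assignment. The mouse libraries were labelled cardiomyocytes of C57BL/6 hearts at day 1, with 3 libraries each of Myh6-Cre;Vldlr f/f, Myh6-Cre;Vldlr f/+ and Vldlr f/f. Myh6-Cre acts from a cardiomyocyte promoter, so it is designed to cut the floxed allele in heart muscle and not in endothelium, and Vldlr f/f carries both floxed alleles without Cre. The sources used here do not give how the mouse cells were isolated. Whether libraries sharing a group were made from different cultures or animals is not labelled; p-values therefore speak only of library-to-library spread, possibly technical.

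Endothelial cells line blood vessels, lymphatics and the heart chambers, and in the heart a dense capillary bed brings them next to nearly every muscle cell. They are held together by adhesion and junction proteins, and they respond to vascular endothelial growth factors and angiopoietins through receptor tyrosine kinases at their surface. RNA of such genes in a preparation of heart muscle cells is widely used as a measure of how much endothelium came along.

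Promoter sequences are shown for 4 members on which the rat results turn: Flt1 and Kdr, paralogous receptors with different ranges across the rat cultures, and Cldn5 and Emcn, which lay nearest the limit of 1 CPM set for testing. They are from RefSeq on the rat build GRCr8, which is not the build named for the deposited values, and run from 250 bases before to 50 bases after the annotated start. Capitals mark AGGAAG or its reverse complement CTTCCT, a core recognised by ETS family factors, a family with several members active in endothelium.
Flt1 (chr12:12333180-12333479, plus strand): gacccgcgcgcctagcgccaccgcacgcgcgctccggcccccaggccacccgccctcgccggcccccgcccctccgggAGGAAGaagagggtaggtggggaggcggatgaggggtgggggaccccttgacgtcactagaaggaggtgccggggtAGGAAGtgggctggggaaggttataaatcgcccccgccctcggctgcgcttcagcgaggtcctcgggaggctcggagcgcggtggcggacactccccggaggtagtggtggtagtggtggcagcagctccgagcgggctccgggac
Kdr (chr14:32571813-32572112, plus strand): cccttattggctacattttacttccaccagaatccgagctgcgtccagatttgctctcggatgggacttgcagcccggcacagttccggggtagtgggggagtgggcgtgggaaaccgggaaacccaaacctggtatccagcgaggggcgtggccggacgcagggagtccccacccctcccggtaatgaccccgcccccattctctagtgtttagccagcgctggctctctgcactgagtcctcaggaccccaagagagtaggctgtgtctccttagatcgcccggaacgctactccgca
Cldn5 (chr11:95718549-95718848, minus strand): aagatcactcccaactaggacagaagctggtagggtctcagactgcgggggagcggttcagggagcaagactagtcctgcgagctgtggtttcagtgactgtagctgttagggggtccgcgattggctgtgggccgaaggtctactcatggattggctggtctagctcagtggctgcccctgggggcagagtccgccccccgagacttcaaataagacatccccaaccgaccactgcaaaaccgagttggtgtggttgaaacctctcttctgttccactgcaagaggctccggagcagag
Emcn (chr2:228564289-228564588, plus strand): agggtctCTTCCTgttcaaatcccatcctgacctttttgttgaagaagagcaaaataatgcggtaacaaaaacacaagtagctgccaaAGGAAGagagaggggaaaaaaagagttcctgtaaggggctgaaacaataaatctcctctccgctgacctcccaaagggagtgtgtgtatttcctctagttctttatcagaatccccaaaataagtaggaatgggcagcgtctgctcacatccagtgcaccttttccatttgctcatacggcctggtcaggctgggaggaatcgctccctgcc

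RefSeq entries matched 6 of the 10 members with 7 start sites, since Egfl7 had 2. AGGAAG or CTTCCT stood in 4 of these 7 windows, among them those of Flt1, Emcn and Tie1, against 34.5% of all 33469 rat promoter windows of the same length. The GC box letters GGGCGG, read on both strands, stood in 5 of 7 windows against 33.1% of all, and TATAAA, on both strands, in the Flt1 window alone against 14.2% of all. Kdr and Cldn5 had GGGCGG and no AGGAAG in these windows, whereas Emcn had AGGAAG and no GGGCGG. These matches describe letters in a window and not bound sites.

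Levels were given in CPM, the usual read-depth scale on which the values of a library share a fixed total. The summed CPM of the members was the measure of endothelial content. In the mouse libraries the 10 members summed to 1299, 1125 and 1479 CPM in Myh6-Cre;Vldlr f/f, to 1137, 1244 and 1419 CPM in Myh6-Cre;Vldlr f/+ and to 1502, 1181 and 1522 CPM in Vldlr f/f. The 3 genotypes overlapped, with means of 1301 ± 177, 1266 ± 142 and 1401 ± 191 CPM in the same order (SD, n = 3 each). These sums were 0.112% to 0.152% of all CPM. Under median-ratio scaling they were 1274, 1289 and 1434 CPM in Myh6-Cre;Vldlr f/f and 1084, 1254 and 1387 CPM in Myh6-Cre;Vldlr f/+. In Vldlr f/f they were then 1406, 1153 and 1399 CPM. The genotypes overlapped again, with the highest library in Myh6-Cre;Vldlr f/f and no longer in Vldlr f/f. In bulk libraries, fewer endothelial cells and less RNA per endothelial cell cannot be told apart.

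In rat the 9 members with a row summed to far less. In the 12-library table their sum was lowest at 86.6 CPM in si-Control_v replicate 1 and highest at 148 CPM in Vldlr OE replicate 2, with a median of 109 CPM. In the Thbs1 table it was 88.1 and 70.8 CPM in si-Thbs1 and 101 and 64.9 CPM in si-Control_t. The same 9 genes summed to between 903 and 1320 CPM in mouse, so every mouse library lay above every rat library. Species, annotation, cell preparation and table differed together, were normalised apart, and cannot be told apart as a source of that gap.

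Markers of other cell types give these sums their scale; the sums are CPM without correction for gene length. The 8 cardiomyocyte markers, such as Myh6, Tnnt2 and Actc1, summed to between 43005 and 54787 CPM in mouse and between 20148 and 37497 CPM in rat. The 8 fibroblast markers, led by the collagens Col1a1, Col3a1 and Col1a2, summed to between 2972 and 5624 CPM in mouse and between 28089 and 46458 CPM in rat. In 15 of 16 rat libraries the fibroblast sum exceeded the cardiomyocyte sum, so the labelled cell type was there together with abundant RNA of fibroblast genes; the exception was si-Thbs1 replicate 1. The 8 mural markers of pericytes and smooth muscle, led in both species by Acta2, exceeded the endothelial sum in all 16 rat libraries, at 1211 to 6369 CPM, and stood at 940 to 1616 CPM in mouse. Macrophage markers summed to 92.9 to 136 CPM in mouse and to 142 to 359 CPM in rat. Erythroid markers, a sign of blood, summed to 24.8 to 103 CPM in mouse and to at most 1.10 CPM in rat.

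**Figure D1:**
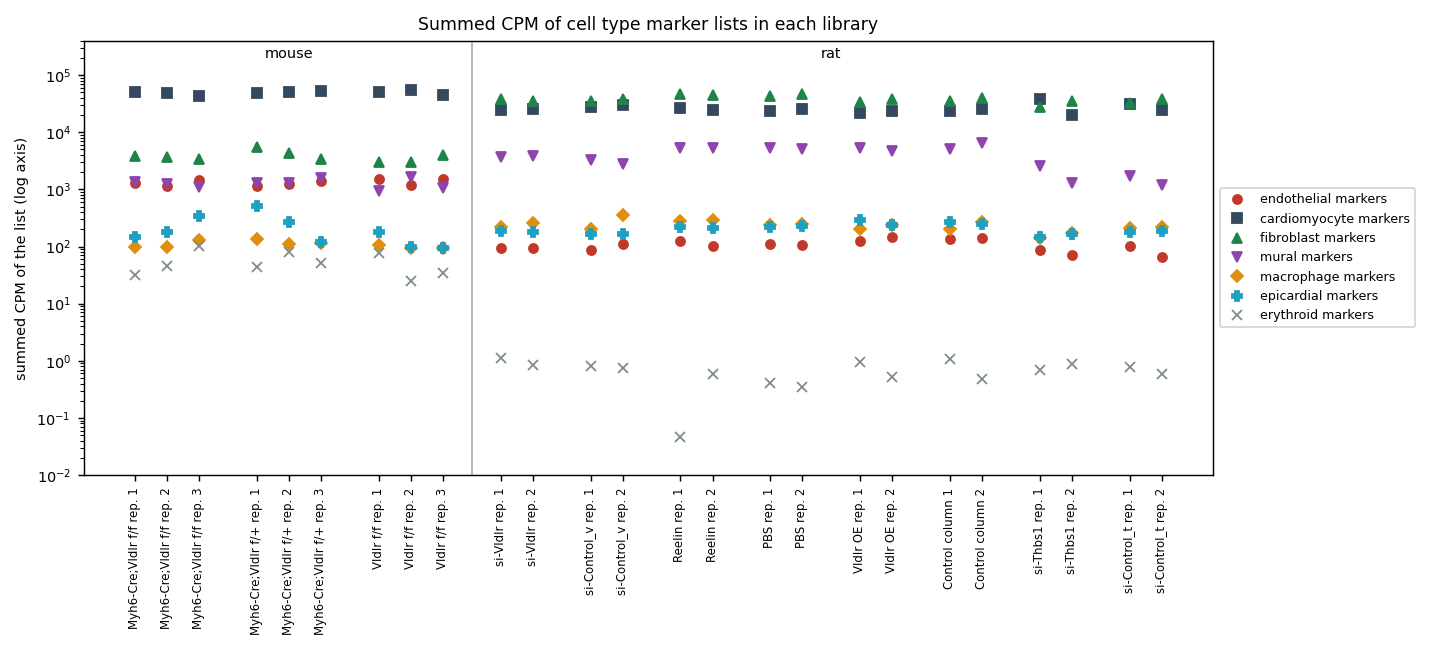
Summed CPM of 7 marker lists in each library, on a log axis, with mouse genotypes on the left and rat groups on the right; each symbol is 1 list in 1 library. The endothelial sum was 1125 to 1522 CPM in mouse and 64.9 to 148 CPM in rat, and the rat fibroblast sum lay above the cardiomyocyte sum in 15 of 16 libraries.

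The targeted genes were read first as a check of the labels. With the Vldlr siRNA, Vldlr stood at 183 and 171 CPM, compared with 252 and 257 CPM in si-Control_v, and at 656 and 889 CPM in Vldlr OE against 577 and 379 CPM in Control. Thbs1 stood at 745 and 546 CPM in si-Thbs1 against 943 and 892 CPM in si-Control_t. In mouse, Vldlr was at 71.3, 78.9 and 85.1 CPM in Myh6-Cre;Vldlr f/f, at 98.4, 112 and 100 CPM in Myh6-Cre;Vldlr f/+ and at 195, 109 and 164 CPM in Vldlr f/f. Every group mean lay in its labelled direction, although Myh6-Cre;Vldlr f/+ replicate 2 lay above the lowest Vldlr f/f library. Values in a library were nearly all whole multiples of a small step, 66088372 to 97773385 steps per library, but a step need not be a read, so the depth in reads is unknown and no counting interval is given.

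Per length of exon in mouse, the 2 most abundant members were junction genes. Cdh5 encodes VE-cadherin, the cadherin of endothelial junctions, and lies at chr8:104101625-104144511 on the plus strand of GRCm38. Its level was the highest, at 68.1 ± 15.0 CPM per kb (SD over 9 libraries). Cldn5, the tight-junction claudin of endothelium at chr16:18776847-18778262, followed at 58.1 ± 23.1 CPM per kb. Pecam1, the immunoglobulin-family adhesion molecule also known as CD31 (chr11:106654217-106750628), had 33.3 ± 9.94 CPM per kb, and Esam, a junctional adhesion molecule (chr9:37528078-37538319), had 25.4 ± 4.60 CPM per kb.

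The receptors are given on the same scale, from the highest to the lowest. Tie1, an orphan receptor kinase that modulates angiopoietin signalling (chr4:118471191-118490061), stood at 36.9 ± 8.46 CPM per kb and Tek, the angiopoietin receptor (chr4:94739289-94874976), at 21.4 ± 3.03 CPM per kb. Kdr, the main signalling receptor for vascular endothelial growth factor (chr5:75932827-75978458), stood at 14.6 ± 4.05 CPM per kb. Flt1, a receptor that binds the same factor tightly and also has a soluble decoy form (chr5:147561604-147726011), was lowest at 4.89 ± 0.769 CPM per kb. The secreted protein gene Egfl7 (chr2:26580014-26593120) had 35.1 ± 4.98 CPM per kb, and Emcn, an endothelial sialomucin of capillaries and veins (chr3:137341067-137432185), had 12.8 ± 3.04 CPM per kb. Of the 9 neighbouring pairs in this order, 1 had ranges over libraries that did not meet, that of Emcn above Flt1. With the principal transcript's length in place of all exons, Egfl7 moved to the top at 90.4 CPM per kb and Flt1 was still last at 9.58 CPM per kb, so the order within the set depends on which length is used.

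Rat levels are given in CPM without division by length, since no rat transcript length was used, and are therefore compared only within a gene. Over the 12-library table, Flt1 had a lowest value of 23.2, a median of 43.6 and a highest of 67.5 CPM. The corresponding values were 14.5, 17.7 and 22.2 CPM for Kdr, and 5.73, 10.7 and 18.4 CPM for Cdh5. Tek ran between 8.73 and 15.9 CPM, Tie1 between 9.03 and 16.0 CPM and Egfl7 between 6.21 and 10.4 CPM. Esam ran between 2.57 and 7.13 CPM, and nearest the limit of 1 CPM were Cldn5 at 0.798 to 2.81 CPM and Emcn at 0.927 to 3.94 CPM. Flt1 made up 38.1% ± 7.70 of the sum in this table (SD, n = 12), with a lowest share of 21.1% and a highest of 46.6%. Its share was 26.2% ± 5.12 in the Thbs1 table (SD, n = 4) and 5.91% ± 0.457 of the same 9 genes in mouse (SD, n = 9). Cdh5 made up 10.5% ± 2.56, 8.74% ± 3.58 and 25.4% ± 3.29 in the same order. Transcript lengths may differ between the species, and that part was not tested.

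**Figure D2:**
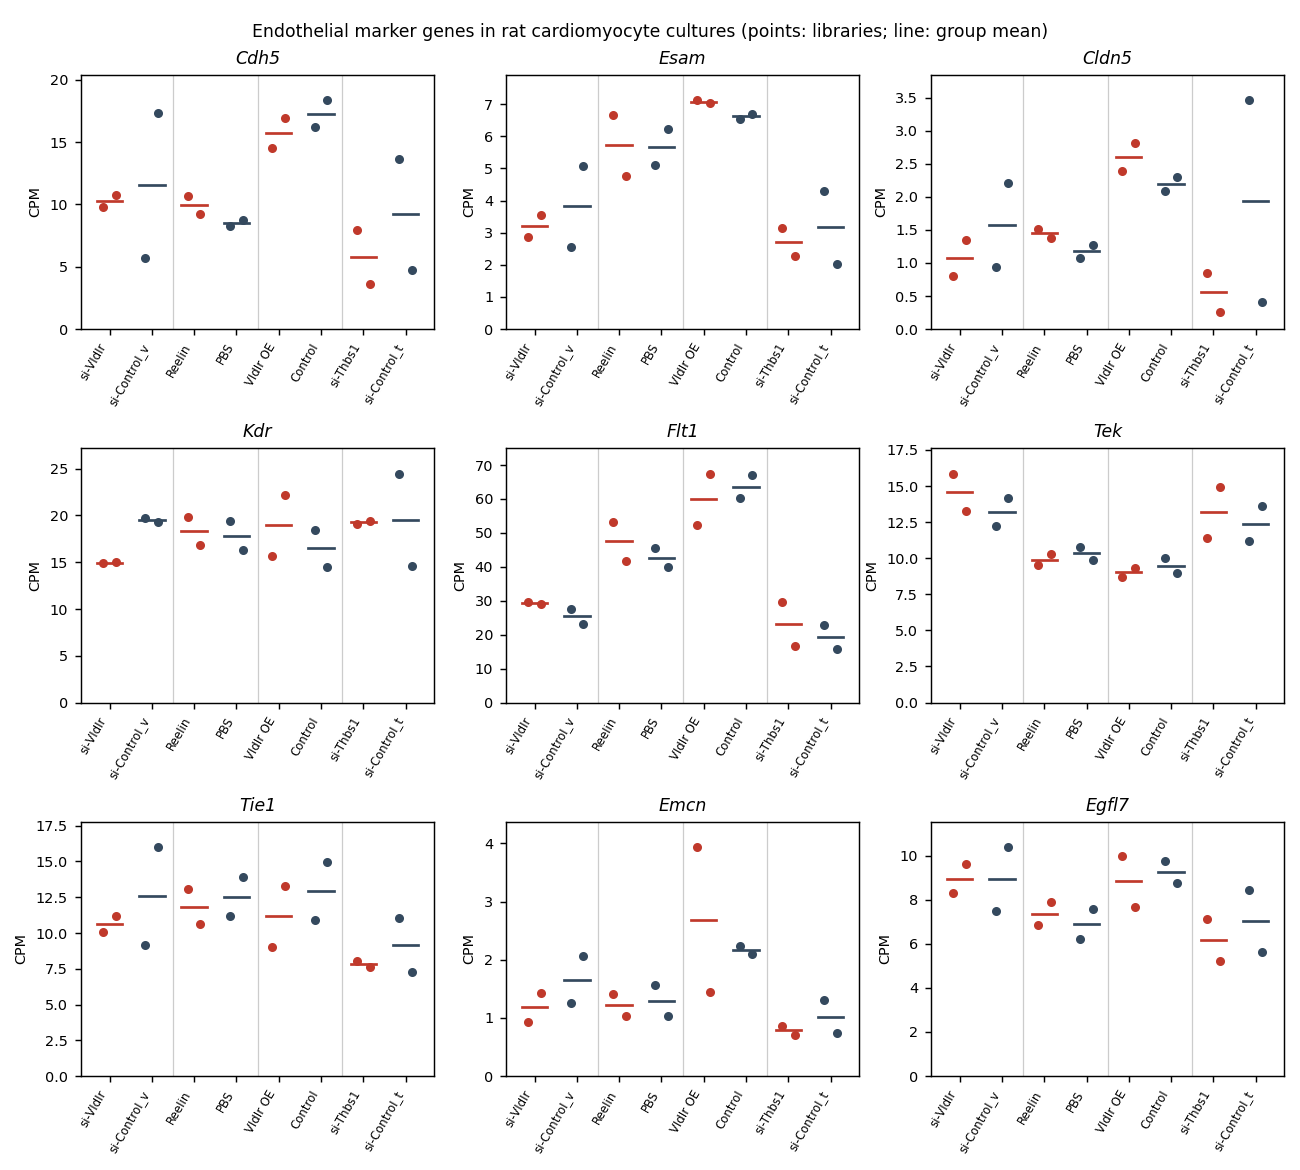
CPM of the 9 members with a row in rat, 1 panel per gene, on linear axes starting at 0; each point is 1 library, each line a group mean of 2 libraries, and each treated group (red) stands left of its control (dark). Flt1 was at 52.4 to 67.5 CPM in Vldlr OE and Control and at 23.2 to 29.5 CPM in si-Vldlr and si-Control_v, where Tek was at its highest at 12.2 to 15.9 CPM.

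Some members had separate ranges in the 3 culture series of the 12-library table, a grouping chosen after the values were seen and described without a test. The AAV9 series held Vldlr OE and the 2 Control columns placed by elimination, so its ranges rest on that assignment. Ranges did not meet for 2 of 9 members between the AAV9 and the Reelin and PBS libraries, for 3 of 9 between the AAV9 and siRNA libraries and for 2 of 9 between the Reelin and PBS and the siRNA libraries. The shares of all genes were 20.1%, 22% and 15.1% for the same pairs of series, so separate ranges were common beyond the members. Flt1 was at 40.0 to 53.3 CPM in the Reelin and PBS libraries at 48 h, 23.2 to 29.5 CPM in the siRNA libraries at 60 h and 52.4 to 67.5 CPM in the AAV9 libraries at 72 h (4 libraries each), so it was lowest with siRNA, while the 48 h and 72 h ranges met. Tek was highest with siRNA, at 9.52 to 10.8, 12.2 to 15.9 and 8.73 to 10.0 CPM in the same 3 series. Kdr had overlapping ranges of 16.3 to 19.8, 14.9 to 19.7 and 14.5 to 22.2 CPM. Esam was higher with AAV9, at 6.54 to 7.13 CPM, than with siRNA, at 2.57 to 5.09 CPM, and Cdh5 and Cldn5 were higher with AAV9 than in the Reelin and PBS libraries, at 14.5 to 18.4 against 8.29 to 10.7 CPM and at 2.08 to 2.81 against 1.08 to 1.51 CPM. The series differ in agent, time and handling at once, and these cannot be told apart. The summed CPM of the members was at 104 to 123 CPM with Reelin or PBS, 86.6 to 110 CPM with siRNA and 124 to 148 CPM with AAV9. The means of that sum were 110, 96.2 and 138 CPM in this order. Flt1, the member with the highest CPM, had means of 45.1, 27.3 and 61.8 CPM. Cdh5 had 9.25, 10.9 and 16.5 CPM, Kdr 18.1, 17.2 and 17.7 CPM and Tie1 12.2, 11.6 and 12.1 CPM. The sum therefore leans on Flt1 and does not show that the members rose as a set. Sums of other markers also differed between the series. The mural sum was at 5006 to 5307 CPM with Reelin or PBS, 2790 to 3792 CPM with siRNA and 4609 to 6369 CPM with AAV9. The epicardial sum separated all 3 series, at 209 to 229, 165 to 186 and 243 to 288 CPM in the same order. The fibroblast sum was highest at 48 h, at 43196 to 46458 CPM, compared with 35593 to 38237 CPM with siRNA and 33715 to 39955 CPM with AAV9. The part of these markers in the member ranges was not tested.

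Each treatment was then set against its own control. Differences are fitted log2 fold changes on the log2(CPM + 1) scale from limma, which understates the change of genes near 1 CPM, and a call required a Benjamini-Hochberg adjusted p under 0.05 over all genes tested. No member was called in any of the 7 comparisons, and none at this threshold under any of 68 alternative fits. The intervals below show how large a difference these libraries could have hidden.

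With Vldlr knocked down in rat cells, 0 of 9 members were called by limma and 0 had an unadjusted p under 0.05; over all 13860 genes tested the shares were 0.0289% and 11.8%. Kdr stood at 14.9 and 15.0 CPM in the si-Vldlr libraries, against 19.7 and 19.3 CPM in si-Control_v. Both knockdown libraries lay below both controls, and the replicates of each group were close together. The log2 fold change was -0.36 ± 0.17 (SE; 95% interval -0.75 to 0.02), with a limma Benjamini-Hochberg adjusted p of 0.441. Flt1 stood at 29.5 and 29.1 CPM in the si-Vldlr libraries, against 27.6 and 23.2 CPM in si-Control_v. Its groups did not overlap either, in the other direction, and its log2 fold change was 0.20 ± 0.15 (95% interval -0.13 to 0.54). A gap between groups was common at this group size: 48.5% of all genes had one, against these 2 of 9 members.

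The Cdh5 value turned on a single control library. It stood at 9.79 and 10.7 CPM in the si-Vldlr libraries, against 5.73 and 17.4 CPM in si-Control_v, so the controls lay on either side of the knockdown libraries. Its log2 fold change was 0.02 ± 0.35, and -0.71 with si-Control_v replicate 1 left out, where its limma Benjamini-Hochberg adjusted p of 0.0701 was the smallest of any member under any alternative (range over the alternatives of this comparison 0.0701 to 1.0). Esam, Cldn5, Tie1 and Emcn had log2 fold changes of -0.15, -0.28, -0.18 and -0.28, and Tek and Egfl7 of 0.13 and 0.01, with overlapping groups for all 6. The median over the 9 members was -0.15 (all genes -0.02). Leaving out si-Control_v replicate 1 gave -0.50 and leaving out replicate 2 of that group gave 0.19, so its sign depends on which control is kept. All 8 cardiomyocyte markers were negative in this comparison (median -0.28), with 3 at an unadjusted p under 0.05 and 0 called. They summed to 24569 and 25302 CPM with Vldlr knocked down, and to 27967 and 30216 CPM in si-Control_v. Mural and epicardial markers were positive in 7 of 8 each (medians 0.19 and 0.24), with 1 of each at an unadjusted p under 0.05 and 0 called, where 46.0% of all genes were positive. The part of these markers in the member values was not tested.

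Under Reelin, 0 of 9 members were called by limma and 0 had an unadjusted p under 0.05, against 0.0144% and 1.36% of all genes. Cdh5 was at 10.7 and 9.25 CPM in Reelin against 8.29 and 8.78 CPM in PBS, and Cldn5 at 1.51 and 1.38 CPM in Reelin against 1.08 and 1.27 CPM in PBS. Both genes had their Reelin libraries above their PBS libraries, and 32.8% of all genes had groups that did not overlap in either direction. Their log2 fold changes were 0.20 ± 0.35 (95% interval -0.57 to 0.97) and 0.17 ± 0.24 (95% interval -0.35 to 0.69). Flt1 was at 53.3 and 41.8 CPM in Reelin against 45.4 and 40.0 CPM in PBS, with overlapping groups. The median over the members was 0.04 (all genes 0.02), and the member values lay between -0.08 for Tie1 and 0.20 for Cdh5. Without Reelin replicate 1 the median was -0.03.

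With Vldlr overexpressed, 0 of 9 members were called by limma and 0 had an unadjusted p under 0.05, against 0.00722% and 4.52% of all genes. Esam was at 7.13 and 7.04 CPM in Vldlr OE against 6.54 and 6.71 CPM in Control, and Cldn5 at 2.39 and 2.81 CPM in Vldlr OE against 2.08 and 2.31 CPM in Control. The overexpressing libraries of these 2 genes lay above Control without overlap, which held in either direction for 25% of all genes. Log2 fold changes were 0.08 ± 0.24 for Esam and 0.17 ± 0.24 for Cldn5. Emcn stood at 3.94 and 1.44 CPM in Vldlr OE against a mean of 2.17 ± 0.0945 CPM in Control (SD, n = 2), so its overexpressing libraries lay on either side of the controls. Kdr was at 15.7 and 22.2 CPM in Vldlr OE against 18.5 and 14.5 CPM in Control, with a log2 fold change of 0.18 ± 0.17 (95% interval -0.20 to 0.56). The median over the members was -0.06 (all genes -0.03). It turned positive, at 0.0086, 0.0034 and 0.05, without Control column 1, Control column 2 or Vldlr OE replicate 1. All 8 cardiomyocyte markers were negative here as well (median -0.13), with 0 called and 0 at an unadjusted p under 0.05, where 57.3% of all genes were negative; their part was not tested.

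With Thbs1 knocked down, 7 members were tested, because Cldn5 and Emcn missed the filter of 1 CPM in 2 libraries; limma called 0 of 7, and 0 had an unadjusted p under 0.05, against 0.0447% and 5.52% of the 13416 genes tested. Cdh5 was at 7.92 and 3.60 CPM in si-Thbs1 against 13.6 and 4.77 CPM in si-Control_t. Replicate 1 was the higher library in both groups, and the groups overlapped. The log2 fold change was -0.52 ± 0.52, with the widest interval of any member (95% interval -1.83 to 0.79). The untested Cldn5 was at 0.854 and 0.257 CPM in si-Thbs1 against 3.47 and 0.413 CPM in si-Control_t, and Emcn at 0.864 and 0.704 CPM against 1.31 and 0.735 CPM in the same order of groups. Flt1 was at 29.7 and 16.8 CPM in si-Thbs1 against 22.9 and 15.9 CPM in si-Control_t, and Kdr at 19.1 and 19.5 CPM against 24.5 and 14.6 CPM in the same order. No tested member had groups that did not overlap, against 29.3% of all genes. The median was -0.12 (all genes 0.03); it was 0.15 without si-Control_t replicate 1, -0.41 without si-Control_t replicate 2 and 0.01 without si-Thbs1 replicate 2. Fibroblast markers were negative in all 8 in this comparison (median -0.35), with 2 at an unadjusted p under 0.05, and mural markers positive in 6 of 8 (median 0.37), also with 2. Epicardial markers were negative in 7 of 8 (median -0.19), with 1 at an unadjusted p under 0.05. Macrophage markers were negative in 5 of the 7 tested (median -0.27), with 2 at an unadjusted p under 0.05. They summed to 142 to 176 CPM in si-Thbs1 against 209 to 220 CPM in si-Control_t. Limma called 0 in each of these lists, 41.6% of all genes were negative, and the part of these markers was not tested.

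In the mouse cells labelled Myh6-Cre;Vldlr f/f, limma called 0 of 10 members, 0 had an unadjusted p under 0.05, and 0% and 3.04% of the 14922 genes tested did. Emcn was at 60.4, 74.7 and 104 CPM in Myh6-Cre;Vldlr f/f against 57.9, 60.9 and 45.8 CPM in Vldlr f/f. The means were 79.8 ± 22.3 and 54.9 ± 7.98 CPM (SD, n = 3 each), and replicate 1 of the mutant group fell within the control range. The log2 fold change was 0.51 ± 0.23 (95% interval -0.01 to 1.02; limma Benjamini-Hochberg adjusted p = 0.997). Kdr was at 139, 105 and 105 CPM in Myh6-Cre;Vldlr f/f against 149, 130 and 219 CPM in Vldlr f/f. A single mutant library lay above the lowest control, and the log2 fold change was -0.49 ± 0.23 (95% interval -1.004 to 0.033).

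Cdh5 was the member whose groups did not overlap in this comparison, as in 8.52% of all genes. It was at 293, 238 and 278 CPM in Myh6-Cre;Vldlr f/f against 361, 295 and 373 CPM in Vldlr f/f, and the highest mutant library lay just under the lowest control. Its log2 fold change was -0.34 ± 0.24 (95% interval -0.88 to 0.19). Pecam1 was at 165, 222 and 329 CPM in Myh6-Cre;Vldlr f/f against 247, 111 and 201 CPM in Vldlr f/f, with wide and overlapping groups and a log2 fold change of 0.37 ± 0.34. Cldn5 was at 95.9, 59.8 and 37.8 CPM in Myh6-Cre;Vldlr f/f against 58.3, 75.6 and 137 CPM in Vldlr f/f, a spread within each group wider than the difference between means. Esam, Flt1, Tie1 and Egfl7 had log2 fold changes of -0.26, -0.28, -0.08 and -0.06, and Tek of 0.12. The median was -0.17 (all genes -0.11), with 3 members positive and 7 negative. Median-ratio scaling brought the median of all genes to -0.00 and that of the members to -0.05, with 5 positive and 5 negative, so the members' split depends on the scaling.

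**Figure D3:**
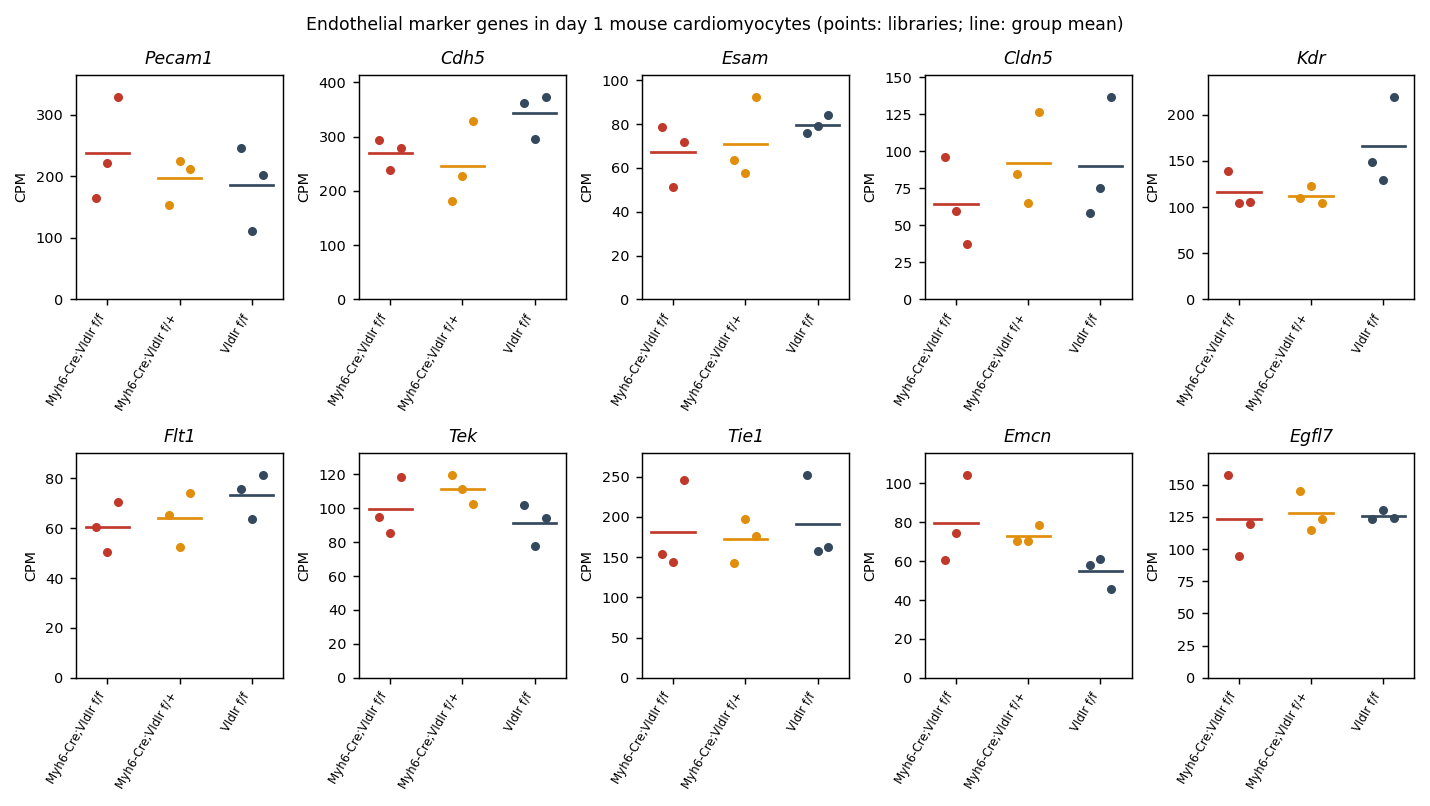
CPM of the 10 members in day 1 mouse cardiomyocytes, 1 panel per gene, on linear axes starting at 0; each point is 1 library and each line a genotype mean of 3 libraries, with Myh6-Cre;Vldlr f/f on the left and Vldlr f/f on the right. Kdr reached 219 CPM in Vldlr f/f, and Emcn reached 104 CPM in Myh6-Cre;Vldlr f/f.

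Cells with Cre and 1 floxed allele were compared with the same controls. Limma called 0 of 10, and 1, Kdr, had an unadjusted p under 0.05, against 0% and 2.43% of all genes. Kdr was at 110, 122 and 105 CPM in Myh6-Cre;Vldlr f/+ against 149, 130 and 219 CPM in Vldlr f/f, all 3 below the lowest control, with a log2 fold change of -0.53 ± 0.23 (95% interval -1.04 to -0.01; limma Benjamini-Hochberg adjusted p = 0.999). Tek was at 119, 111 and 103 CPM in Myh6-Cre;Vldlr f/+ against 102, 77.5 and 94.2 CPM in Vldlr f/f. Emcn was at 70.6, 70.3 and 78.5 CPM against 57.9, 60.9 and 45.8 CPM in the same order. In these 3 members the groups did not overlap, Kdr being lower and Tek and Emcn higher, which held in either direction for 5.97% of all genes. Cdh5 was at 182, 228 and 328 CPM in Myh6-Cre;Vldlr f/+ against 361, 295 and 373 CPM in Vldlr f/f, with a log2 fold change of -0.51 ± 0.24 and overlapping groups. The median was -0.05 (all genes -0.06). Both Cre comparisons use the same Vldlr f/f libraries, so their values are not independent.

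Between the Cre genotypes, which differ by 1 floxed allele, limma fitted without pairs called 0 of 10 members, against 0% of all genes. Unadjusted p under 0.05 was reached by 0 members, against 0.925% of all genes. No member had groups that did not overlap, against 2.49% of all genes. The widest difference was in Cldn5, at 95.9, 59.8 and 37.8 CPM in Myh6-Cre;Vldlr f/f against 84.5, 64.9 and 127 CPM in Myh6-Cre;Vldlr f/+, with a log2 fold change of -0.55 ± 0.41 (95% interval -1.45 to 0.35). Kdr, at 0.04, was the closest to 0. Taking same-numbered libraries as pairs, Flt1 was lower in Myh6-Cre;Vldlr f/f in all 3 pairs, at 60.6, 50.6 and 70.5 CPM against 65.3, 52.7 and 74.0 CPM in Myh6-Cre;Vldlr f/+. The other 9 members did not keep 1 direction over the pairs, and 24.4% of all genes did. The median over the members was -0.01 (all genes -0.06). It was 0.06 with median-ratio scaling and ran from -0.12 to 0.11 with 1 library left out, so its sign depends on both.

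**Figure D4:**
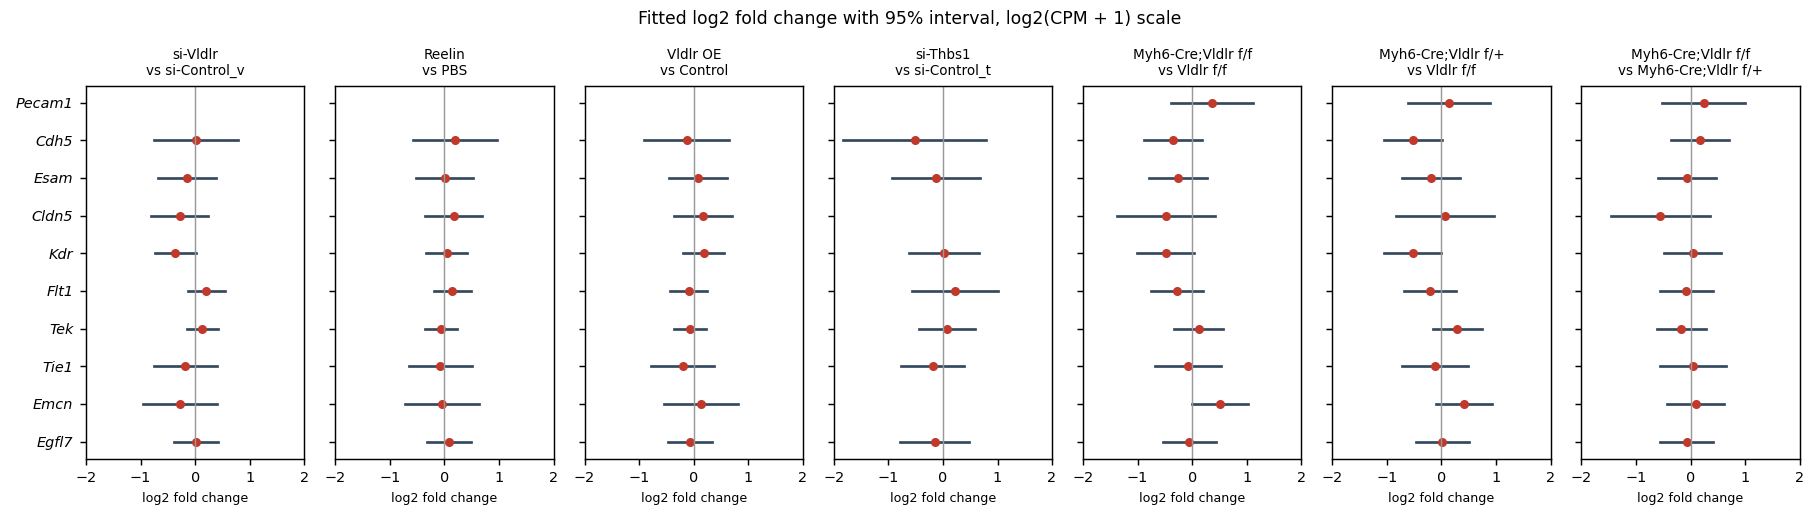
Fitted log2 fold changes of the members (red points) with 95% intervals (lines) in the 7 comparisons, on the log2(CPM + 1) scale, with the first-named group over the second; Cldn5 and Emcn were not tested for si-Thbs1. Apart from Kdr in Myh6-Cre;Vldlr f/+ relative to Vldlr f/f, whose interval ends at -0.01, every interval includes 0.

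Other endothelial genes were read in lists chosen for their roles, and none of their members was called by limma in any comparison. For reading the counts of signs in Myh6-Cre;Vldlr f/f relative to Vldlr f/f, 66.1% of all genes were negative there as deposited (median -0.11) and 50.3% under median-ratio scaling. Among 13 endothelial transcription factors, led in mouse by Epas1, Klf2 and Sox18 at medians of 118, 89.8 and 56.9 CPM, 2 had positive and 11 negative log2 fold changes in Myh6-Cre;Vldlr f/f relative to Vldlr f/f (median -0.27; -0.15 with 4 positive and 9 negative under median-ratio scaling). Unadjusted p under 0.05 was reached by 0 of them there, against 3.04% of all genes, and by 3 of 13 under Vldlr knockdown in rat, against 11.8% of all genes. Of 25 other pan-endothelial genes, led by Eng, the endoglin co-receptor, at a median of 353 CPM in mouse and 169 CPM in rat, 17 were negative and 8 positive in Myh6-Cre;Vldlr f/f (median -0.15), a split that became 13 and 12 under median-ratio scaling (median -0.03). Both splits are close to those of all genes. In si-Vldlr 15 of the 22 tested were negative (median -0.18), against 54.0% of all genes, and 4 had an unadjusted p under 0.05, against 11.8% of all genes. Summed CPM of the 25 genes went the other way, at 378 to 387 CPM in si-Vldlr against 323 to 350 CPM in si-Control_v. The transcription factors summed to 194 to 206 CPM in si-Vldlr and to 164 to 167 CPM in si-Control_v. These sums carry no test.

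Genes of vessel subtypes were present at levels of their own. The 10 capillary genes, led in mouse by the fatty acid handling genes Fabp4 and Cd36 at medians of 653 and 660 CPM, summed to 1517 to 1648 CPM in Myh6-Cre;Vldlr f/f, 1257 to 2028 CPM in Myh6-Cre;Vldlr f/+ and 1939 to 2178 CPM in Vldlr f/f. As deposited, the Myh6-Cre;Vldlr f/f sums lay below those of Vldlr f/f, and these capillary sums were not taken under median-ratio scaling. Fabp4 and Cd36 had means of 677 and 667 CPM in a mean sum of 1742 CPM. In that comparison 7 of the 10 genes were negative (median -0.39), against 66.1% of all genes. Median-ratio scaling also gave 7 (median -0.27), against 50.3%. Unadjusted p under 0.05 was reached by 1 of the 10, against 3.04% of all genes, and limma called 0. The 12 arterial genes, led by Notch1 and Hey2, were negative in all 12 in the same comparison (median -0.43, all genes -0.11), against 66.1% of all genes, and in 10 of 12 under median-ratio scaling (median -0.31), against 50.3%, with 0 called and 0 at an unadjusted p under 0.05. Their sums overlapped, at 281 to 421 CPM in Myh6-Cre;Vldlr f/f and 394 to 515 CPM in Vldlr f/f. The 7 endocardial genes, which mark the lining of the chambers, had 6 positive values (median 0.16; 7 positive and 0.25 under median-ratio scaling), with 0 called and 0 at an unadjusted p under 0.05. Venous and lymphatic genes had medians of -0.25 and -0.17 there (-0.12 and -0.055 under median-ratio scaling), with 0 called and 0 and 1 at an unadjusted p under 0.05.

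Several of these lists hold genes that are not specific to endothelium. In rat such genes led the arterial, venous and endocardial lists, and whether the genes leading the mouse lists are specific was not tested. Which cells gave the list values was not tested in either species. By CPM in rat, the arterial list was led by the netrin receptor Unc5b at a median of 586 CPM. The venous list was led there by the co-receptor Nrp2 at 357 CPM and the endocardial list by the cadherin Cdh11 at 234 CPM. Robo4, a roundabout receptor of endothelium, was listed at 0 in 15 of 16 rat libraries. Ligands of the member receptors were detected in both species: Vegfa, a ligand of Kdr and Flt1, had a median of 140 CPM in mouse and 410 CPM in rat, and Vegfb, a ligand of Flt1, 177 CPM in mouse. Of 12 ligands and co-receptors tested in rat, 4 had an unadjusted p under 0.05 under Vldlr knockdown, against 11.8% of all genes, and 0 were called.

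Markers of other cell types are given beside the mouse results. All 8 epicardial markers, such as the mesothelial genes Msln and Upk3b, were positive in Myh6-Cre;Vldlr f/f (median 0.82) and in Myh6-Cre;Vldlr f/+ (median 1.15) against Vldlr f/f, with 0 called and 0 and 3 at an unadjusted p under 0.05; all 8 stayed positive under median-ratio scaling. Of all genes, 33.9% and 41.7% were positive in these comparisons, and 3.04% and 2.43% had an unadjusted p under 0.05. The epicardial sums overlapped between genotypes and were 150, 183 and 349 CPM in Myh6-Cre;Vldlr f/f, 507, 272 and 121 CPM in Myh6-Cre;Vldlr f/+ and 182, 99.7 and 93.3 CPM in Vldlr f/f. Mural markers were negative in 5 of 8 in both comparisons under either scaling (medians -0.32 and -0.36 as deposited), with 2 at an unadjusted p under 0.05 and 0 called in each. Of all genes, 66.1% and 58.3% were negative there as deposited, and 50.3% and 51.5% under median-ratio scaling. Mean mural sums went the other way, at 1246 CPM in Myh6-Cre;Vldlr f/f and 1398 CPM in Myh6-Cre;Vldlr f/+ against 1207 CPM in Vldlr f/f. The ranges of these sums overlapped. Myh6-Cre;Vldlr f/+ replicate 1 was also highest for Schwann markers, at 56.6 CPM against at most 11.1 CPM in Vldlr f/f, and for platelet markers, at 55.4 CPM against at most 19.0 CPM in Vldlr f/f. Without that library the median member log2 fold change in Myh6-Cre;Vldlr f/+ relative to Vldlr f/f was -0.04. Macrophage sums were 112 to 136 CPM in Myh6-Cre;Vldlr f/+, 98.3 to 129 CPM in Myh6-Cre;Vldlr f/f and 92.9 to 107 CPM in Vldlr f/f. Platelet sums were 19.8 to 55.4, 16.2 to 32.7 and 15.1 to 19.0 CPM in the same order. For both lists the Myh6-Cre;Vldlr f/+ sums lay above those of Vldlr f/f without overlap as deposited. Fibroblast and erythroid sums overlapped between genotypes. The part of these markers in the endothelial results was not tested.

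Within each species the members did not move as a block. Over the 9 mouse libraries the 45 pairs had a median Pearson correlation of 0.18 on log2(CPM + 1), 28 of them positive. The highest was 0.81 between Esam and Flt1 and the lowest -0.87 between Kdr and Emcn. Over the 12 rat libraries the 36 pairs had a median of 0.18, 24 of them positive, from -0.87 between Flt1 and Tek to 0.89 between Cdh5 and Cldn5. After each group's mean was removed the medians were 0.25 in mouse and 0.14 in rat. These are descriptions, since libraries share group, culture series and normalisation.

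**Figure D5:**
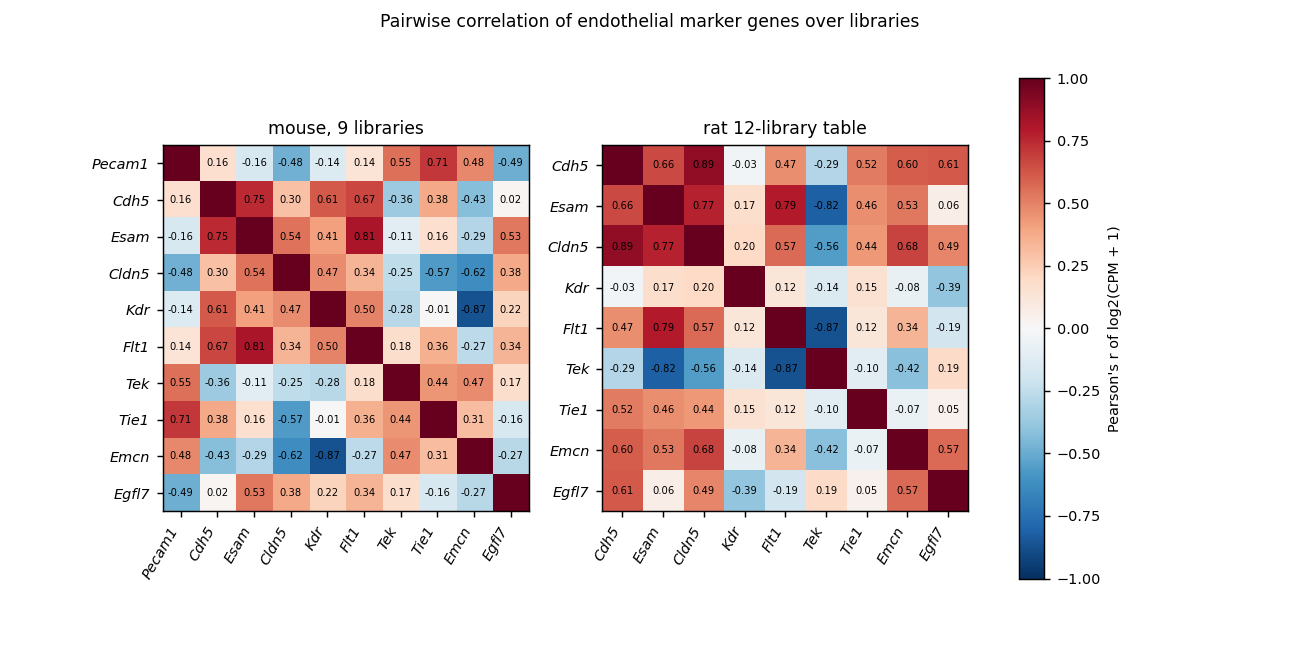
Pearson correlation of log2(CPM + 1) between members over the 9 mouse libraries (left) and the 12 libraries of the larger rat table (right), from -1 in blue to 1 in red, with the diagonal left unlabelled. Kdr and Emcn in mouse and Flt1 and Tek in rat were both at -0.87, and Cdh5 and Cldn5 in rat at 0.89.

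Genes outside the set that followed the members' mean log2(CPM + 1) most closely were ranked among those averaging 5 CPM or more. In mouse, over 9 libraries and 11344 genes, they were Mib1 (r = 0.97), Gab1, Tmed10, Dcaf12, Gmeb1, Rgma, Ficd, Epas1, Ahnak and Pygo1 (r = 0.92). In rat, over 12 libraries and 11108 genes, they were Spop (r = 0.94), Plpp3, Tesc, Gypc, F11r, Dkk3, Lancl1, Foxo4, Spon2 and Snx33 (r = 0.92). With so few libraries and so many genes, values of this size are a ranking and carry no test. Epas1 is also on the list of endothelial transcription factors.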

How the data were processed

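RNA-seq libraries of rat neonatal ventricular cells (16) and day 1 mouse cardiomyocytes (9) were analysed from 3 tables of CPM deposited by the authors, 1 column per library, each scaled to the same total. Per the submitters' processing notes, the builds were rn6 and mm10 and the tools HISAT2 2.1.0, StringTie 1.3.4 and edgeR 3.20.9, with no roles given; strand setting and annotation release are not given in the sources used here. CPM cannot show a change in total RNA, and a very abundant gene lowers all others.

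In each table, 4 rows with repeated names were left out. Values were taken as log2(CPM + 1), genes with at least 1 CPM in 2 rat or 3 mouse libraries were kept, and all groups of a table were fitted together in limma 3.58.1, run in R 4.3.3, letting the variance prior follow intensity. Benjamini-Hochberg adjustment ran over all genes. The code was tested on simulated data. No count test was run, since the CPM steps need not be reads. Mouse positions and lengths came from GENCODE M21 on GRCm38 and rat promoters from RefSeq on GRCr8. Protein sequences were not used here.

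Same-numbered libraries of the 2 Cre genotypes deviated together over genes (correlations 0.459, 0.439 and 0.333), so these numbers were taken to pair them. No label states this pairing, and correlations between differently numbered libraries were not taken. The fold changes, intervals and p-values given between these 2 genotypes still come from the fit without pairs. The blocked fit called 0 members. Members, lists and rules were chosen with earlier results of these data known. All members were named in every comparison; of the lists, the genes with the highest mean CPM were named, as none was called. Robo4 and the grouping of the rat libraries by culture series were chosen after their values were seen. Alternatives were a pseudocount of 0.1, no filter, median-ratio scaling, the compared groups alone, a replicate block and leaving out each library.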

Additional observations from a re-analysis of the deposited data

How the results depend on the processing

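No member was called under any of the 68 alternative fits. Of the 64 tested member differences, 39 changed sign when 1 library was left out and 5 under another alternative, none of them called. Leaving out 1 library moved the median member log2 fold change over -0.50 to 0.19 for si-Vldlr, -0.058 to 0.050 for Vldlr OE and -0.20 to -0.014 for Myh6-Cre;Vldlr f/+ relative to Vldlr f/f. The count of all genes called, which was 4, 2, 1 and 6 for si-Vldlr, Reelin, Vldlr OE and si-Thbs1 as reported, ran with 1 library left out over 4 to 167 for si-Vldlr (167 without si-Control_v replicate 1), 5 to 10 for Reelin, 2 to 257 for Vldlr OE (257 without Vldlr OE replicate 2, 80 without Control column 1), 14 to 185 for si-Thbs1 (185 without si-Control_t replicate 1) and 0 to 1 for each Cre genotype against Vldlr f/f. A lone library left in a group is assumed there to vary like the other groups. With the compared groups alone, 8, 13 and 8 genes were called for si-Vldlr, Reelin and Vldlr OE, and 1 for Myh6-Cre;Vldlr f/f relative to Vldlr f/f. Without the filter on low CPM, 4 were called for Vldlr OE and 0 for si-Thbs1. The cause of these shifts was not tested.

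With a replicate block, 43 genes and 0 members were called for si-Thbs1, 3 genes for si-Vldlr and 3 for Reelin. Same-numbered libraries correlated at 0.156, -0.063 and 0.409 for si-Vldlr, Reelin and si-Thbs1, with 2 pairs each, so the numbers were not taken as pairs. Against Vldlr f/f the block called 0 genes for either Cre genotype, and the median member log2 fold change was -0.17 and -0.05. The block changed no member's call. No paired analysis was possible for Vldlr OE because the Control columns carry no replicate number. Groups of 2 or 3 libraries of unknown depth in reads limit every result: member intervals reached from -1.83 to 1.12 on the log2 scale.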
